A study of Mus musculus with 10 samples.

Results

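The 39 genes described here encode the enzymes and regulatory subunits that make purine and pyrimidine nucleotides, turn them into the precursors of DNA, and supply serine and folate-bound carbon units for these steps. They were chosen by name, as a list of purine, pyrimidine, deoxynucleotide, serine and folate one-carbon genes. All 39 of them were found among the 50559 genes counted, 38 under the symbol used here and Ctps1 under its older symbol Ctps. All 39 also passed the filter on low counts, which 29952 genes passed. RNA from formalin-fixed, paraffin-embedded tissue (FFPE) of 10 mouse samples was sequenced after depletion of ribosomal RNA. The 4 MYC/SMARCA4 tumors grew in CD1nu/nu recipients at ages of 112, 96, 89 and 79 days (tumors 1 to 4). Their cells of origin were granule cell precursors (GCPs) of Math1-creERT2::Smarca4fl/fl pups given tamoxifen at P3, in which Smarca4 is recombined in Math1-positive cells, followed by transduction with a lentivirus that expresses murine Myc and GFP from the CMV promoter. The GCPs were transplanted without sorting, and a tissue punch holds every cell within its area, host cells included. The 3 P7 cerebella were whole cerebella of Math1-creERT2::Smarca4fl/fl mice aged 7 days that had received 0.4 mg tamoxifen at day 3. These cerebella thus carry the Smarca4 recombination in part of the Math1 lineage too. The paper reports SMARCA4 loss in only part of the GCPs cultured from such pups, and in all tumor cells by staining. The 3 SHH MB were tumors of Math1-cre::Smofl/wt mice, labelled with an age of 7 days, in which Math1-cre acts on the Smo allele of the same lineage. The labels number the P7 and SHH MB samples without saying that each came from its own animal, so p-values measure the spread between these samples.

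Purine rings are built stepwise on phosphoribosyl pyrophosphate (PRPP), the activated ribose, whereas the pyrimidine ring is closed before ribose is attached. Serine gives a carbon unit to tetrahydrofolate, and formyl and methylene groups from the folate cycle enter the purine ring and thymidylate. In the postnatal cerebellum these pathways serve the dividing GCPs of the external granule layer, and many of their genes, Cad among them, are textbook targets of MYC, which binds E-boxes with its partner MAX.

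Promoter windows of 36 of the 39 genes were available from RefSeq (GRCm38.p6), each covering the bases before and just after a start, while Pfas, Dhodh and Rrm2b had none. They were searched on both strands for the E-box of MYC and MAX (CACGTG), an E2F-like motif (TTTNNCGC) and an ATF4-like motif (TGATGNAA), which do not contain each other. The E-box was present in 6 of 36 genes (16.7%) against 8.09% of 27025 genes with a window. The E2F-like motif was present in 8 of 36 genes (22.2%) against 5.93%, and the ATF4-like motif in 1 gene, Prps1 (2.78%), against 4.51%. The sequences below are 30 bases around each E-box found upstream of a start, shown because E-boxes are the sites MYC is known to bind. They are written 5′ to 3′ on the strand of the gene, with the E-box in capitals. Each was placed on GRCm39 by an exact match of its window.
Paics, chr5:77098934-77098963, plus strand: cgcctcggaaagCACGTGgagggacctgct
Atic, chr1:71596285-71596314, plus strand: gaggaggggcgggacctcggggtCACGTGg
Impdh2, chr9:108437513-108437542, plus strand: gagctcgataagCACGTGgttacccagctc
Tyms, chr5:30278667-30278696, minus strand: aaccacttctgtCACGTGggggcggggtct
Dtymk, chr1:93729787-93729816, minus strand: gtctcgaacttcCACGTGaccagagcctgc
Nme1, chr11:93859099-93859128, minus strand: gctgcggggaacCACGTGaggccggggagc
Nme1, chr11:93858863-93858892, minus strand: agcttgatacgcCACGTGggctcgcctttg
Nme1 has a site before the start in each of its windows, and other annotated starts were not searched. Upstream refers to the start of the RefSeq window. By annotation, the stretches of Nme1, Atic and Impdh2 overlap exons of the same gene, and that of Dtymk an exon of Gm70929. The stretch of Paics overlaps an exon of Ppat, the purine gene transcribed in the opposite direction from the same region. The E2F-like motif lay upstream of the start in Prps1, Ppat, Psph and, for the inner start, Nme1. The stretches of Ppat overlap annotated exons of Paics. The sites of Prps1 and Ppat, genes of the entry into purine synthesis, are shown with the motif or its reverse complement in capitals.
Prps1, chrX:139357200-139357229, plus strand: aatttaacccgTTTCACGCctctgaacaaa
Ppat, chr5:77099618-77099647, minus strand: gagcagaccgcGCGGGAAAaaagggcagtg
Ppat, chr5:77099565-77099594, minus strand: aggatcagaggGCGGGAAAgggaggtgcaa
These matches describe letters in a window. No binding was measured in these samples.

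Total counts per library ranged from 5663491 to 9352109, and the 39 genes took up between 0.104% and 0.362% of them. Myc had 614, 2043, 11342 and 8326 counts in tumors 1 to 4, against 91 to 131 in P7 cerebella and 247 to 322 in SHH MB. Its log2 fold change was 5.85 ± 0.75 (SE) against P7 cerebella (adjusted p = 0.00194) and 4.31 ± 0.69 against SHH MB (adjusted p = 0.00428). Smarca4 counts, taken over the whole gene and not over its deleted part, were 841 to 1950 in tumors, 1814 to 2584 in P7 cerebella and 3510 to 4163 in SHH MB. Tumor 1 stood apart from the other tumors. Its genes of a proliferation list of 12 genes summed to 168 CPM after TMM scaling, against 2201 to 2412 in tumors 2 to 4. The list summed to 925 to 1265 CPM in P7 cerebella and 2562 to 3013 in SHH MB. Marker lists of differentiated cells differed between libraries in both directions, with every listed marker counted in every library. The 6 mature granule neuron markers summed to 3788, 1339, 186 and 734 CPM in tumors 1 to 4, against 330 to 391.8 in P7 cerebella and 105 to 150 in SHH MB. The 6 Purkinje cell markers summed to 11410, 2708, 347 and 1899 CPM, and the 6 myelin markers to 3909, 779, 104 and 415 CPM. Tumor 1 was thus the highest library for these 3 lists. It was also the highest for the 6 endothelium markers (335 CPM, against 89.4 to 204 elsewhere) and the 6 microglia markers (144 CPM, against 38.5 to 109). By summed CPM it was the lowest for the 8 astrocyte and Bergmann glia markers (481 CPM, against 499 to 2595 in the other tumors, 2338 to 2423 in P7 cerebella and 1912 to 2256 in SHH MB) and for the 5 choroid plexus markers (20.6 CPM). By mean log2 CPM, tumor 3 was lower than tumor 1 for the astrocyte list (3.96 against 5.12), and tumor 2 for the choroid plexus list (1.67 against 1.70). In P7 cerebella the Purkinje cell and myelin lists summed to 1250 to 1391 and 919 to 1098 CPM, and in SHH MB to 336 to 621 and 111 to 373 CPM. Mitochondrial transcripts made up 6.36% of counts in tumor 1, 2.29% to 2.94% in the other tumors and 1.25% to 1.59% in the controls. The part of these values in the results below was not tested, and in bulk tissue fewer cells of a type and less RNA per cell cannot be told apart.

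Against P7 cerebella, all 6 genes of de novo purine synthesis were higher in MYC/SMARCA4 tumors, together with 3 of 6 genes of the folate cycle, 2 of 5 of pyrimidine synthesis and 1 each of PRPP synthesis, the GMP branch and the kinases and salvage genes. No gene of deoxynucleotide supply (7 genes) or serine synthesis (3 genes) passed. In edgeR's quasi-likelihood fit of all 10 libraries, 14 of the 39 genes were higher in tumors at an adjusted p of at most 0.05 and 0 were lower, where 3.99% of all genes tested were higher and 2.27% lower. The log2 fold change was above 0 for 37 of the 39 genes, with a median of 1.09 against -0.05 over all genes. After TMM scaling, every tumor exceeded every P7 cerebellum in 17 genes (10.3% of all genes). Every tumor was below every P7 cerebellum in 1 gene, Mthfd2l (10.7%). None of the 39 reached a log2 fold change of 2.5 with an adjusted p of at most 0.01, where 0.29% of all genes did. That count of 0 compares with 27 genes at an unadjusted p under 0.05 (7558 of all 29952 genes), and with 1 gene past both thresholds, Shmt1, in DESeq2. All 14 also passed when tumor 1 was left out, and the count then rose to 28 of 39, where 11.1% of all genes were higher. The count fell to 0 when any P7 cerebellum was left out, where 0.1% to 0.227% of all genes were higher. It was 9, 19 and 8 without tumors 2, 3 and 4, where 1.77%, 11.8% and 1.8% of all genes were higher. The fit of all libraries uses a common estimate of the spread. When only tumors and P7 cerebella were fitted, 0 of the 39 passed, where 0.206% of all genes were higher and 0.607% lower. Chi-square per degree of freedom between libraries of a group was 26.6 to 99.1 for tumors and 3.76 to 6.22 for controls. The tests thus moved strongly with the libraries, while the median of the 39 genes stayed between 0.84 and 1.31 in all settings tried.

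**Figure D1:**
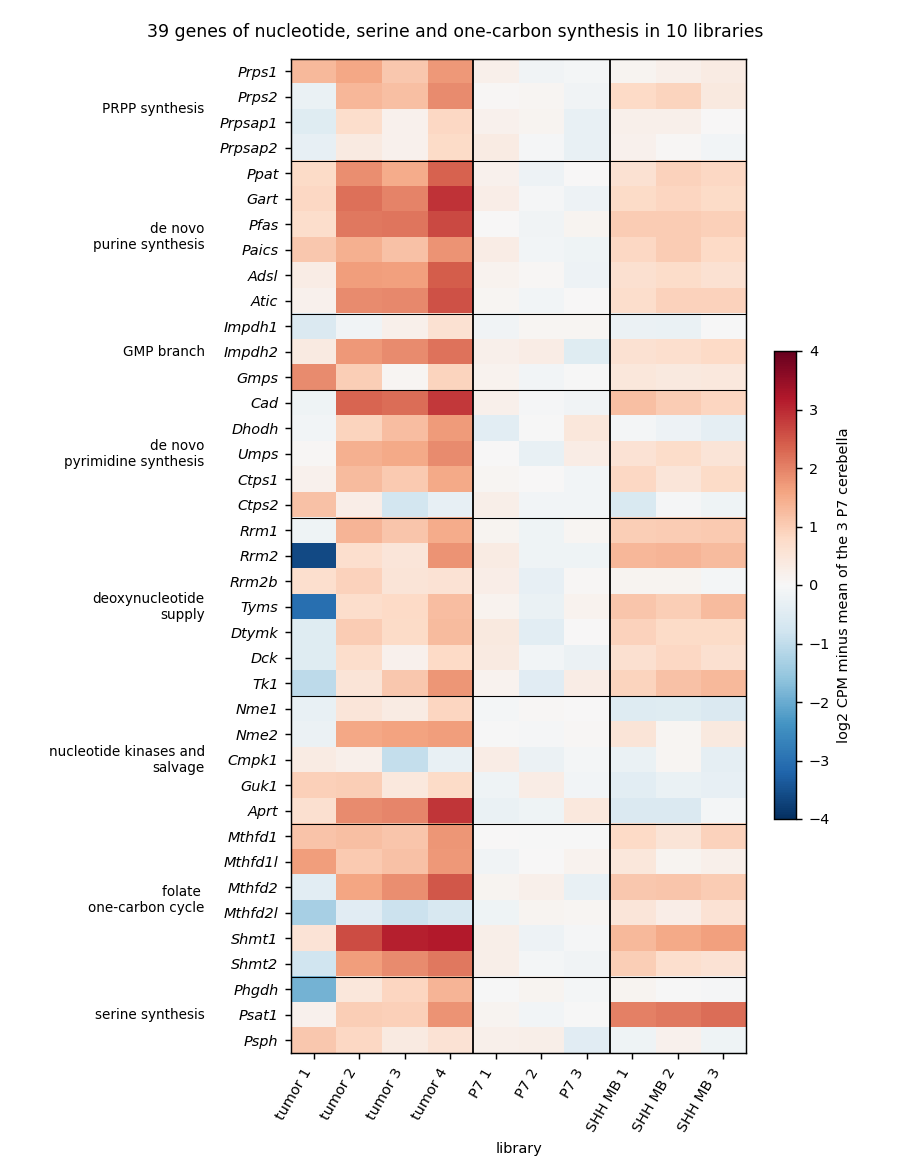
Levels of the 39 genes (rows, grouped by role) in the 10 libraries (columns), as log2 CPM minus the mean of the 3 P7 cerebella. Red is above and blue below that mean. The 6 genes of de novo purine synthesis are red in all 4 tumors, and Rrm2 and Tyms are dark blue in tumor 1.

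Against SHH MB, which also grow from the Math1 lineage, PRPP synthesis, salvage and the mitochondrial folate arm held the genes that differed. In the same edgeR fit, 4 of the 39 genes were higher in MYC/SMARCA4 tumors (Prps1, Guk1, Aprt and Mthfd1l) and 1 was lower (Mthfd2l), where 2.43% of all genes were higher and 2.26% lower. The median log2 fold change was 0.64 against 0.01 over all genes, and 32 of the 39 were above 0. Tumors lay wholly above SHH MB in 9 genes (7.83% of all genes) and wholly below in 2 genes (8.3%), Mthfd2l and Psat1. None of the 39 passed the stricter thresholds, where 0.601% of all genes did. In DESeq2 that count was also 0, and 20 genes had an unadjusted p under 0.05 in edgeR (5939 of all 29952 genes). Without tumor 1, 19 genes were higher (5.91% of all genes) and 1 lower, with the same 5 genes among them. Leaving out an SHH MB library left 0, 0 and 1 gene higher, where 0.174%, 0.188% and 0.166% of all genes were higher. When only tumors and SHH MB were fitted, 1 gene, Aprt, was higher and 0 lower. In that fit 0.337% of all genes were higher and 1.15% lower. Both comparisons use the same 4 tumors, so their values are set side by side here and not counted as independent.

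SHH MB compared with P7 cerebella gave 1 gene that passed, Psat1, higher in SHH MB. Across all genes this fit called 0.177% higher and 0.0467% lower. Yet 25 of the 39 genes were wholly higher in SHH MB (17.8% of all genes) and 2, Nme1 and Guk1, wholly lower (19% of all genes). No gene passed the stricter thresholds (0.01% of all genes), in edgeR or DESeq2, and 8 had an unadjusted p under 0.05 in edgeR (2635 of all 29952 genes). The median log2 fold change was 0.66 against -0.09 over all genes. When only the SHH MB and P7 libraries were fitted, so that the spread of the tumors did not enter, 23 genes were higher (13.4% of all genes) and 1, Nme1, was lower (10.3%). Psat1 lost its call when any SHH MB or P7 library was left out of the fit. In these fits 0 of all genes were called, except 0.0186% higher without SHH MB 1, so the loss was not particular to Psat1.

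**Figure D2:**
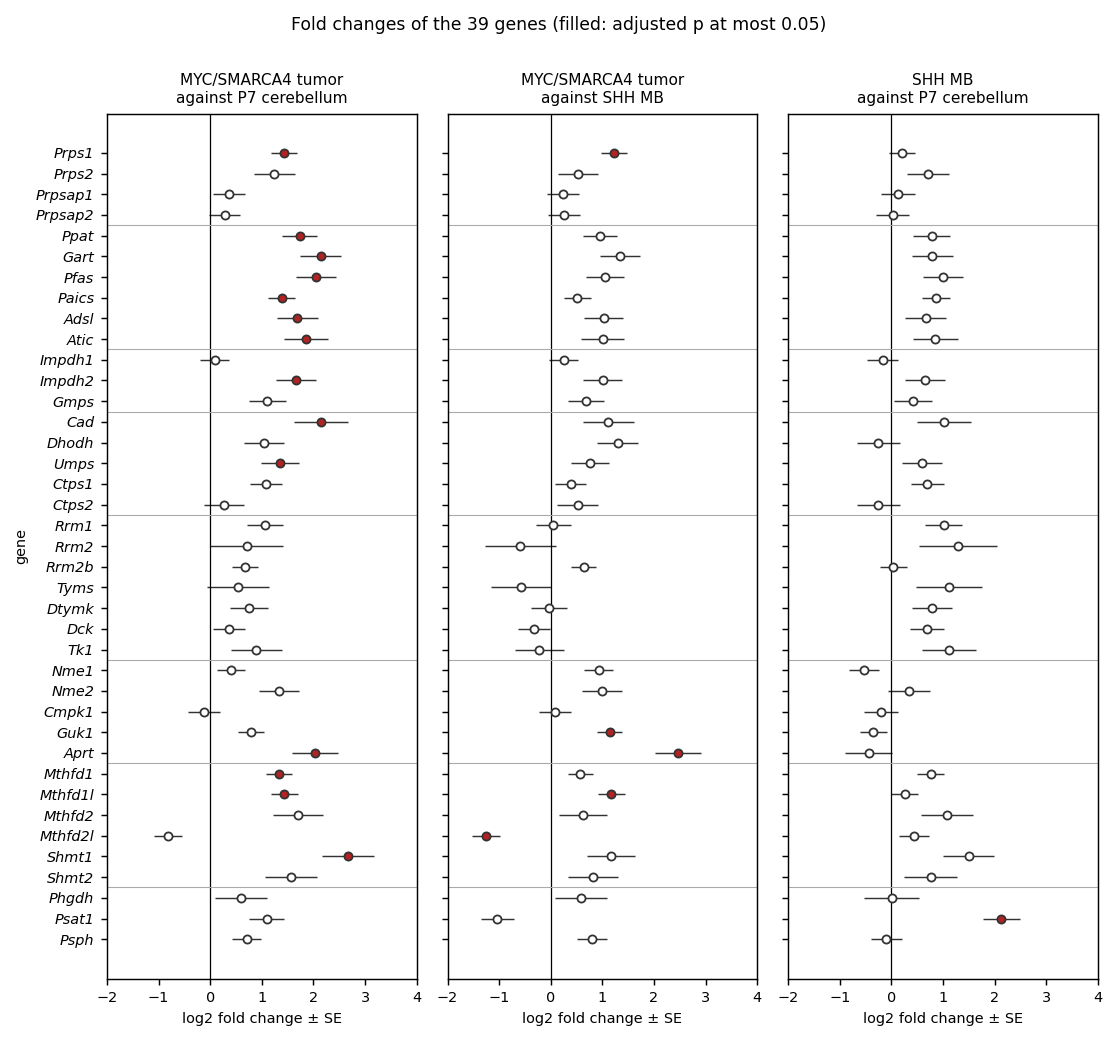
Log2 fold change of each gene in the 3 comparisons (points, with SE as bars) from the edgeR fit of all libraries. Filled points have an adjusted p of at most 0.05 over all genes tested. The filled points are 14, 5 and 1 from left to right.

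PRPP synthesis is shared by all nucleotides. Prps1 (chrX:139346452-139376893, plus strand, GRCm39), a PRPP synthetase, had levels of 5.92, 6.15, 5.69 and 6.34 log2 CPM in tumors 1 to 4. It had 4.82, 4.47 and 4.54 in P7 cerebella and 4.71, 4.82 and 4.93 in SHH MB. All 4 tumors, tumor 1 included, were above all controls, with log2 fold changes of 1.44 ± 0.25 (SE, adjusted p = 0.00961) against P7 cerebella and 1.23 ± 0.25 (adjusted p = 0.0159) against SHH MB. Its isozyme Prps2 behaved differently in tumor 1, at 4.40 log2 CPM, whereas tumors 2 to 4 had 5.99, 5.86 and 6.54. P7 cerebella had 4.70, 4.74 and 4.52 of Prps2 and SHH MB 5.44, 5.54 and 5.05. The difference of 1.24 ± 0.39 against P7 cerebella did not pass (adjusted p = 0.0792). Prpsap1 and Prpsap2, the regulatory proteins associated with PRPP synthetase, had log2 fold changes of 0.37 and 0.28 against P7 cerebella and 0.24 and 0.25 against SHH MB, and passed in neither.

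All 6 genes of de novo purine synthesis rose against P7 cerebella, and in each of them every tumor was above every P7 cerebellum after TMM scaling. Gart (chr16:91416576-91444536, minus strand), the trifunctional enzyme that includes a formyl transfer step, showed the lowest p of the group. It had 5.93, 7.30, 7.10 and 7.99 log2 CPM in tumors 1 to 4, against 5.37, 5.06 and 4.90 in P7 cerebella and 5.88, 5.97 and 5.89 in SHH MB. Tumor 1 was level with the SHH MB, and tumors 2 to 4 were well above them. The log2 fold change was 2.14 ± 0.40 against P7 cerebella (4.41-fold, adjusted p = 0.0129) and 1.34 ± 0.39 against SHH MB (adjusted p = 0.0695). Pfas, which uses glutamine to aminate the growing ring, rose by 2.05 ± 0.39 (adjusted p = 0.0132). Atic, the enzyme of the last 2 steps to inosine monophosphate (IMP), rose by 1.86 ± 0.42 (adjusted p = 0.0254). Ppat, the amidotransferase of the committed step, rose by 1.73 ± 0.34 (adjusted p = 0.016), and Adsl, adenylosuccinate lyase, by 1.69 ± 0.39 (adjusted p = 0.0273). Paics, the bifunctional carboxylase and synthetase, rose by 1.38 ± 0.27 (adjusted p = 0.0141). Their summed level was 369, 817, 761 and 1208 CPM in tumors 1 to 4, against 206 to 248 in P7 cerebella and 389 to 426 in SHH MB, so that tumor 1 lay below SHH MB.
Against SHH MB none of the 6 passed in edgeR, with log2 fold changes of 0.52 to 1.34. Of these, 5 had an unadjusted p under 0.05 (5939 of all 29952 genes), and DESeq2 called Gart. Without tumor 1, Ppat, Gart, Pfas, Adsl and Atic passed, at 1.15 to 1.59, where 5.91% of all genes were higher. In SHH MB the 6 genes lay 0.66 to 1.00 above P7 cerebella on the log2 scale. All SHH MB were above all P7 cerebella in each (17.8% of all genes). None of these 6 passed in the fit of all libraries (0.177% of all genes higher), and all 6 did when only these groups were fitted (13.4%). Exons of Ppat and Paics overlap each other on opposite strands, and exons of Gart overlap Son. Of the 39 genes, 21 have an exon overlapped on the opposite strand, among them Impdh2, Shmt1, Shmt2 and Tk1. The strand setting of the counting is not given in the sources used here, so reads in such stretches are uncertain.

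In the GMP branch, IMP dehydrogenase takes IMP toward guanine nucleotides. Impdh2 (chr9:108437485-108442783, plus strand), the isoform known from proliferating cells, had 4.31, 5.70, 5.85 and 6.13 log2 CPM in tumors 1 to 4. Its levels in P7 cerebella were 4.16, 4.24 and 3.47, and in SHH MB 4.56, 4.62 and 4.75. Tumor 1 was just above the P7 cerebella and below the SHH MB. The log2 fold change was 1.66 ± 0.38 against P7 cerebella (adjusted p = 0.027) and 1.00 ± 0.37 against SHH MB (adjusted p = 0.155). Impdh1 had 4.80, 5.23, 5.57 and 5.97 in tumors, 5.23, 5.45 and 5.44 in P7 cerebella, and 5.13, 5.12 and 5.36 in SHH MB, with a log2 fold change of 0.08 ± 0.28 against P7 cerebella. Over the settings tried this value ran from -0.17 to 0.26. Gmps, GMP synthetase, was 1.11 ± 0.36 above P7 cerebella without passing (adjusted p = 0.0843), and here tumor 1 had the highest level of all libraries, 8.16 log2 CPM against 6.35 to 7.24 in the other tumors. Without tumor 1 its log2 fold change was 0.72.

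De novo pyrimidine synthesis showed its largest log2 fold change at its first enzyme against P7 cerebella and at Dhodh against SHH MB. Cad (chr5:31212111-31236418, plus strand), which holds the first 3 activities in a single protein, had 5.82 log2 CPM in tumor 1 and 8.32, 8.24 and 8.82 in tumors 2 to 4. P7 cerebella had 6.20, 5.94 and 5.85, and SHH MB 7.21, 7.01 and 6.85. Tumor 1 thus had less Cad than any control, whereas tumors 2 to 4 had more than all of them. Over all 4 tumors the log2 fold change was 2.14 ± 0.52 against P7 cerebella (4.42-fold, adjusted p = 0.0324) and 1.11 ± 0.50 against SHH MB (adjusted p = 0.234). Without tumor 1 it was 2.49 (adjusted p = 9.38e-05) and 1.44 (adjusted p = 0.00218). Umps, which makes uridine monophosphate, rose by 1.36 ± 0.37 against P7 cerebella (adjusted p = 0.0474). Dhodh, the mitochondrial dehydrogenase of the pathway, had the lowest p of the group against SHH MB. Its levels were 3.45, 4.45, 4.78 and 5.25 log2 CPM in tumors, 3.13, 3.53 and 4.01 in P7 cerebella, and 3.48, 3.36 and 3.21 in SHH MB. The log2 fold changes of 1.05 ± 0.39 and 1.29 ± 0.39 did not pass (adjusted p = 0.119 and 0.0828).
CTP synthase, which aminates UTP to CTP, exists as isozymes. Ctps1 had 5.56, 6.66, 6.44 and 6.89 log2 CPM in tumors, 5.46, 5.41 and 5.29 in P7 cerebella, and 6.22, 5.87 and 6.14 in SHH MB. After TMM scaling all tumors were above all P7 cerebella, and the difference of 1.08 ± 0.30 fell just short of the threshold (adjusted p = 0.0532). Ctps2 had 6.50, 5.58, 4.59 and 5.0 in tumors, 5.54, 5.19 and 5.22 in P7 cerebella, and 4.72, 5.29 and 5.16 in SHH MB. Its highest level was in tumor 1, and its log2 fold change against P7 cerebella, 0.27 ± 0.39, ran from -0.32 to 0.40 over the settings tried.

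**Figure D3:**
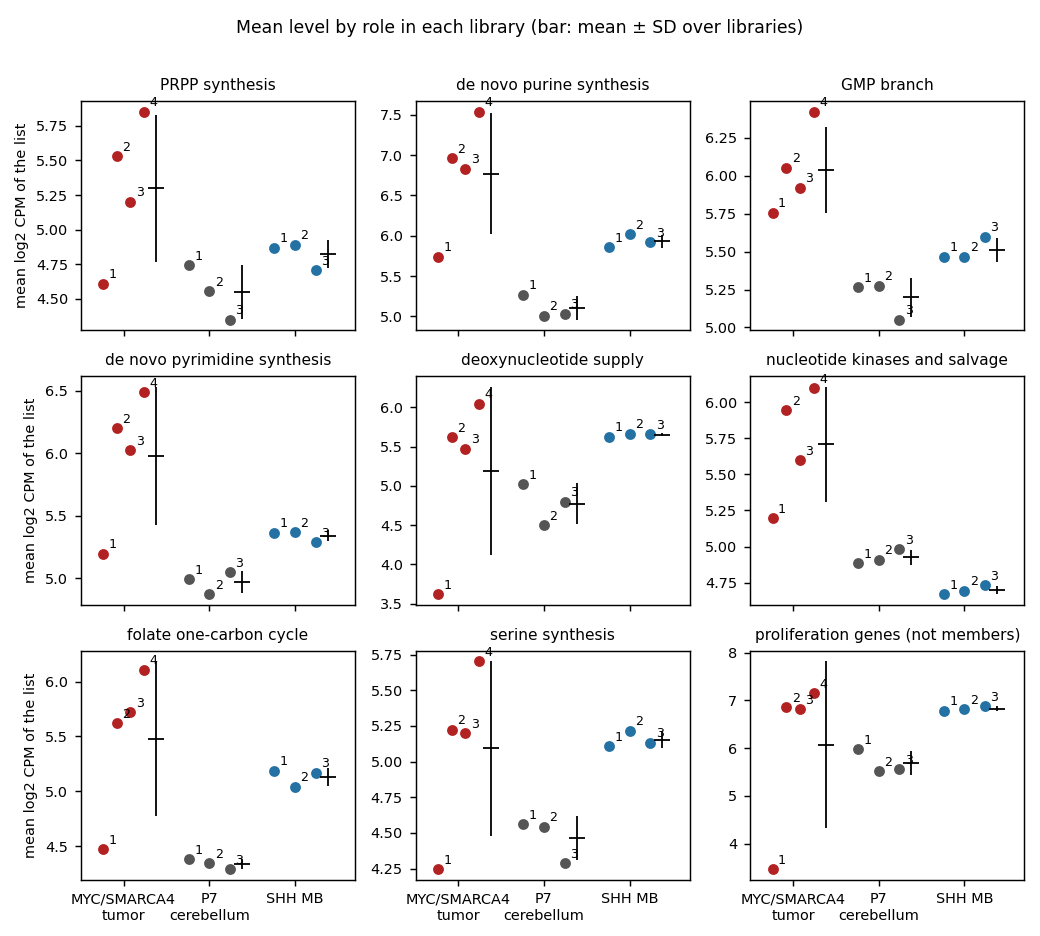
Mean log2 CPM over the genes of each role in every library (points, numbered by replicate, each panel with its own y axis), with the mean ± SD of each group as a bar. The last panel shows 12 proliferation genes that are not among the 39. Tumor 1 is the lowest tumor in every panel. It lies below all other libraries for deoxynucleotide supply, for the proliferation genes and, narrowly, for serine synthesis.

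Deoxynucleotide supply had a median log2 fold change of 0.71 against P7 cerebella and -0.23 against SHH MB. None of its 7 genes passed against P7 cerebella or against SHH MB in edgeR. An unadjusted p under 0.05 was found for 2 and 1 of them, and for 7558 and 5939 of all 29952 genes. DESeq2 called Rrm1 against P7 cerebella and none against SHH MB. Rrm1, the large subunit of ribonucleotide reductase, had 5.88, 7.40, 7.15 and 7.51 log2 CPM in tumors, 6.14, 5.87 and 6.12 in P7 cerebella, and 7.02, 7.06 and 7.09 in SHH MB. Tumors 2 to 4 were above all controls, and tumor 1 was among the P7 cerebella. The log2 fold change was 1.07 ± 0.34 against P7 cerebella (adjusted p = 0.0828) and 0.05 ± 0.34 against SHH MB. Rrm2, the small subunit made in S phase, had 10, 295, 328 and 956 counts in tumors 1 to 4. That is 1.46, 5.74, 5.53 and 6.87 log2 CPM, against 5.39, 4.88 and 4.90 in P7 cerebella and 6.37, 6.42 and 6.32 in SHH MB. The spread among tumors (SD of 2.37 log2 CPM) exceeded the differences from either control, 0.71 ± 0.71 and -0.59 ± 0.69. Rrm2b, the alternative small subunit known as a p53 target, did not share the drop in tumor 1. Its levels were 4.91, 5.14, 4.74 and 4.81 log2 CPM in tumors, 4.49, 3.91 and 4.27 in P7 cerebella, and 4.35, 4.33 and 4.15 in SHH MB. All tumors were above all controls, by 0.67 ± 0.25 and 0.64 ± 0.25, and neither difference passed (adjusted p = 0.117 and 0.172).
Tyms, thymidylate synthase, had 10 counts in tumor 1 and 198 to 422 in the other tumors. Against P7 cerebella its log2 fold change was 0.54 ± 0.60, and that of Tk1, the thymidine kinase of S phase, was 0.89 ± 0.49. Dtymk, the next kinase toward dTTP, lay 0.75 ± 0.36 above P7 cerebella, and Dck, the deoxycytidine salvage kinase, 0.36 ± 0.31. Against SHH MB, Rrm2, Tyms, Dtymk, Dck and Tk1 had values below 0, from -0.59 to -0.03. Without tumor 1, 5 of the 7 passed against P7 cerebella (Rrm1, Rrm2, Tyms, Dtymk and Tk1). In that fit 11 of the 12 proliferation genes passed too, and 11.1% of all genes were higher. Against SHH MB 0 of the 7 passed also then, where 5.91% of all genes were higher, and the median of the group was 0.07. In SHH MB 6 of the 7 genes lay wholly above P7 cerebella (17.8% of all genes), all but Rrm2b, by 0.69 to 1.30. So did all 12 proliferation genes. The 6 genes of deoxynucleotide supply passed when only SHH MB and P7 cerebella were fitted (13.4% of all genes higher). None did in the fit of all libraries (0.177%).

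Among the nucleotide kinases and salvage genes, Aprt stood out. Aprt (chr8:123301184-123303648, minus strand), which recycles adenine with PRPP, had 4.33, 5.59, 5.64 and 6.56 log2 CPM in tumors 1 to 4. Its levels were 3.45, 3.54 and 4.12 in P7 cerebella and 3.12, 3.13 and 3.61 in SHH MB. Every tumor was above every control, and SHH MB overlapped P7 cerebella. The log2 fold change of 2.46 ± 0.45 against SHH MB (5.52-fold, adjusted p = 0.0094) was the largest of the 39 genes in that comparison, and that against P7 cerebella was 2.03 ± 0.44 (4.08-fold, adjusted p = 0.0219). Guk1, guanylate kinase, rose against SHH MB by 1.14 ± 0.25 (adjusted p = 0.0238) and lay 0.79 ± 0.25 above P7 cerebella (adjusted p = 0.0767), with all tumors above all controls.
Nme1 and Nme2, neighbouring genes for nucleoside diphosphate kinase, are both textbook MYC targets. Nme1 had 5.60, 6.37, 6.22 and 6.74 log2 CPM in tumors, 5.83, 5.94 and 5.91 in P7 cerebella, and 5.38, 5.41 and 5.31 in SHH MB. Tumors were wholly above SHH MB and overlapped P7 cerebella, with log2 fold changes of 0.93 ± 0.28 (adjusted p = 0.0766) and 0.40 ± 0.27. Nme2 had 4.47, 6.27, 6.33 and 6.39 in tumors, 4.71, 4.68 and 4.75 in P7 cerebella, and 5.23, 4.80 and 5.09 in SHH MB. Here tumor 1 was below every control, and the log2 fold changes of 1.34 ± 0.39 and 1.00 ± 0.38 did not pass (adjusted p = 0.0589 and 0.167). Both genes share exons with the readthrough gene Nme1nme2, so their counts are uncertain. Cmpk1, the UMP and CMP kinase, had 6.02, 5.88, 4.74 and 5.39 in tumors, 5.99, 5.45 and 5.62 in P7 cerebella, and 5.42, 5.75 and 5.33 in SHH MB. Its log2 fold change of -0.12 ± 0.31 against P7 cerebella ran from -0.43 to 0.06 over the settings tried.

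The folate cycle held the largest increase against P7 cerebella and the one decrease that passed against SHH MB. Shmt1 (chr11:60661185-60708167, minus strand), the cytosolic enzyme that moves a carbon unit from serine to tetrahydrofolate, had 4.20, 6.25, 6.74 and 6.83 log2 CPM in tumors 1 to 4. P7 cerebella had 3.89, 3.44 and 3.60, and SHH MB 4.94, 5.17 and 5.28. All tumors were above all P7 cerebella, and tumor 1 was below all SHH MB. Shmt1 rose by 2.67 ± 0.50 against P7 cerebella (6.38-fold, adjusted p = 0.0126) and lay 1.17 ± 0.46 above SHH MB (adjusted p = 0.181). Shmt2, its mitochondrial counterpart, had 4.10, 6.59, 6.81 and 7.02 in tumors, 5.13, 4.82 and 4.78 in P7 cerebella, and 5.90, 5.59 and 5.48 in SHH MB. Tumor 1 was below every control, and the difference of 1.57 ± 0.50 against P7 cerebella did not pass (adjusted p = 0.0793). Without tumor 1 Shmt1 passed in both comparisons (3.01 and 1.48), and so did Shmt2 (1.92 and 1.14). Exons of Shmt1 overlap Smcr8 and exons of Shmt2 overlap Ndufa4l2 on the opposite strand, so reads in these stretches are uncertain.
Mthfd1l (chr10:3922870-4117081, plus strand), the mitochondrial formate-producing synthetase, had 6.54, 5.91, 6.05 and 6.60 log2 CPM in tumors, 4.74, 4.89 and 5.0 in P7 cerebella, and 5.32, 4.98 and 5.09 in SHH MB. It rose by 1.43 ± 0.26 (adjusted p = 0.0114) and 1.17 ± 0.26 (adjusted p = 0.0231), tumor 1 being among the highest. Mthfd1, the cytosolic trifunctional enzyme, rose by 1.34 ± 0.26 against P7 cerebella (adjusted p = 0.0135) and lay 0.58 ± 0.25 above SHH MB (adjusted p = 0.22), wholly above both. Mthfd2, the mitochondrial dehydrogenase of embryonic and dividing cells, had 3.20, 5.19, 5.47 and 6.08 in tumors, 3.71, 3.81 and 3.32 in P7 cerebella, and 4.70, 4.72 and 4.63 in SHH MB. Its difference of 1.70 ± 0.49 against P7 cerebella did not pass (adjusted p = 0.057), with tumor 1 below all controls.
Mthfd2l (chr5:91078920-91169231, plus strand), the related dehydrogenase of adult tissues, went the other way. It had 2.75, 3.62, 3.21 and 3.43 log2 CPM in tumors, 3.90, 4.20 and 4.14 in P7 cerebella, and 4.55, 4.34 and 4.67 in SHH MB. All tumors were below all controls. The log2 fold change was -1.26 ± 0.27 against SHH MB (adjusted p = 0.0219) and -0.81 ± 0.27 against P7 cerebella (adjusted p = 0.0928). Its counts were low in tumors, 26 to 86, against 122 to 166 in P7 cerebella and 149 to 177 in SHH MB.

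Serine synthesis held the gene that passed between SHH MB and P7 cerebella. Psat1 (chr19:15882039-15924701, minus strand), the aminotransferase of the second step, had 7.51, 7.62 and 7.75 log2 CPM in SHH MB and 5.61, 5.41 and 5.50 in P7 cerebella. MYC/SMARCA4 tumors lay in between, at 5.68, 6.48, 6.47 and 7.29. SHH MB exceeded P7 cerebella by 2.13 ± 0.36 (4.38-fold, adjusted p = 0.0381). MYC/SMARCA4 tumors were 1.09 ± 0.33 above P7 cerebella (adjusted p = 0.0709) and 1.04 ± 0.32 below SHH MB on the log2 scale (log2 fold change -1.04, adjusted p = 0.0896), without overlap in either case. Phgdh, the dehydrogenase that opens the pathway, did not share this pattern, with a log2 fold change of 0.01 ± 0.53 between SHH MB and P7 cerebella. It had 18 counts in tumor 1 and 134 to 368 in the other tumors, and lay 0.60 ± 0.50 above P7 cerebella. Psph, the phosphatase of the final step, lay 0.71 ± 0.29 above P7 cerebella (adjusted p = 0.151) and 0.80 ± 0.29 above SHH MB (adjusted p = 0.142), with all tumors above all controls. Exons of Psph overlap Cct6a on the opposite strand.

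Ratios of paired enzymes within a library do not depend on how libraries are scaled, and were taken from counts with 0.5 added. The log2 ratio of Mthfd2 to Mthfd2l counts was 0.46, 1.58, 2.29 and 2.68 in tumors 1 to 4, against -0.84 to -0.19 in P7 cerebella and -0.03 to 0.38 in SHH MB. The ratio of Impdh1 to Impdh2 was -0.47 to 0.49 in tumors, 1.08 to 1.99 in P7 cerebella and 0.50 to 0.62 in SHH MB. Tumors and SHH MB both lay below P7 cerebella, but tumor 1 (0.488) was level with SHH MB 2 (0.495). Shmt1 to Shmt2 was -0.34 to 0.10 in tumors, -1.40 to -1.19 in P7 cerebella and -0.96 to -0.21 in SHH MB, and included tumor 1 although both genes were low there. Ctps1 to Ctps2 was -0.94 in tumor 1 and 1.08 to 1.89 in the other tumors, against -0.08 to 0.22 in P7 cerebella and 0.58 to 1.50 in SHH MB. Rrm2 to Rrm2b was -3.52 in tumor 1 and 0.60 to 2.07 in the others, with 0.64 to 0.99 in P7 cerebella and 2.04 to 2.18 in SHH MB. Nme1 to Nme2 was 1.14 in tumor 1 and -0.11 to 0.36 in the others, with 1.12 to 1.27 in P7 cerebella and 0.14 to 0.62 in SHH MB. Prps1 to Prps2 was 1.53 in tumor 1 and -0.20 to 0.16 in the others, with -0.27 to 0.13 in P7 cerebella and -0.73 to -0.12 in SHH MB. Tumor 1 lay outside the range of tumors 2 to 4 in each of the 7 pairs. For levels of single genes, it was the lowest tumor for 28.5% and the highest for 32.6% of all genes tested. Ratios of other gene pairs were not taken, so this is not shown to be particular to these pairs. No test was made of these ratios.

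**Figure D4:**
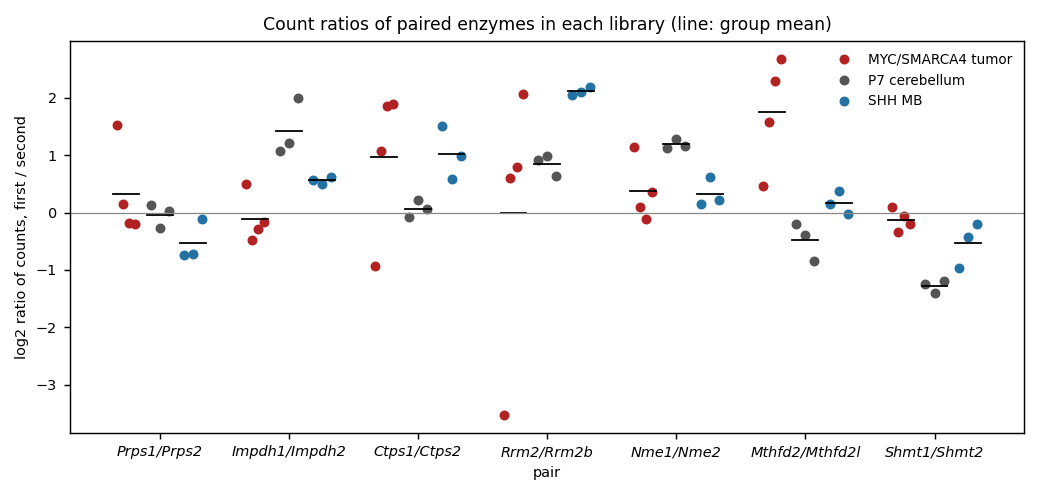
Log2 ratio of the counts of paired enzymes (y axis) in each library, by pair and group, with a line at each group's mean. Shmt1/Shmt2 and Mthfd2/Mthfd2l are higher in all 4 tumors than in all P7 cerebella, and Impdh1/Impdh2 is lower in all of them. The lowest point is Rrm2/Rrm2b in tumor 1, at -3.52.

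The tumors also differed among themselves. Tumor 1 had the lowest level of the 4 tumors for 30 of the 39 genes, and tumor 4 the highest for 32. Over all genes tested, tumor 1 was the lowest tumor for 28.5% and tumor 4 the highest for 17.5%. The median difference of the 39 genes from the mean of the P7 cerebella was 0.17, 1.03, 1.08 and 1.72 on the log2 scale in tumors 1 to 4, and from the mean of SHH MB it was -0.41, 0.65, 0.52 and 1.11. Tumor 1 was above all P7 cerebella for 20 genes and below all of them for 16. The other tumors were above for 36, 32 and 36 genes. Of all genes, 38.3% were above and 46.7% below all P7 cerebella in tumor 1, and 35.8% to 37.1% were above in the other tumors. In tumor 1 the 6 purine genes were, after TMM scaling, still above all P7 cerebella, by a median of 0.72, whereas the median was -0.47 for deoxynucleotide supply and 0.07 for the folate cycle. Gmps, Ctps2, Cmpk1 and Psph had their highest tumor level in tumor 1, the tumor with the highest markers of mature granule neurons, Purkinje cells and myelin. The part of those cells in these levels was not tested. Leaving out tumor 1 raised the log2 fold change of 33 of the 39 genes against P7 cerebella and of 32 against SHH MB, where it did so for 56.3% and 53.3% of all genes.

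**Figure D5:**
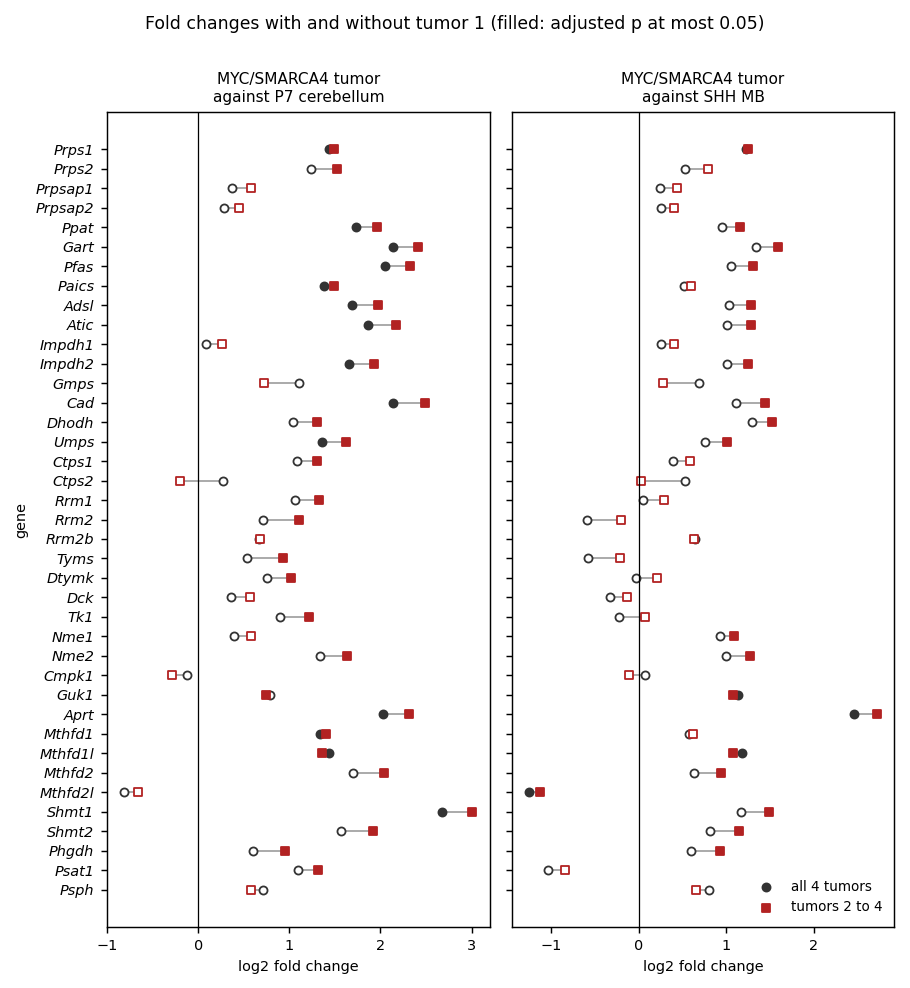
Log2 fold change (x axis) of each gene from the edgeR fit with all 4 tumors (circles) and with tumors 2 to 4 (squares), against P7 cerebella and against SHH MB. Filled symbols have an adjusted p of at most 0.05. Filled squares number 28 and 20, filled circles 14 and 5.

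Levels of different genes were compared per kilobase of exon. In MYC/SMARCA4 tumors the highest medians among the 39 genes were those of Cad (35.4 CPM per kb), Pfas (30.7), Prps1 (27.3), Aprt (27.0) and Nme2 (27.0). In P7 cerebella Nme1 (10.9 CPM per kb), Prps1 (9.59) and Nme2 (8.93) led. SHH MB had the highest medians for Psat1 (33.5 CPM per kb) and Rrm2 (24.9). Mthfd2l was the lowest gene in tumors (0.895 CPM per kb) and in P7 cerebella (1.602), and Dhodh was the lowest in SHH MB (1.45). Exon lengths are the union of annotated isoforms, which lowers the value of genes with rarely used exons.

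Other genes of the same metabolism were taken from lists of further pathway steps. For folate uptake, reduction and methyl transfer, 7 of 15 genes tested were higher in tumors against P7 cerebella and 1 was lower. Over all genes 3.99% were higher and 2.27% lower in this comparison, for the lists below too. Slc19a1, the reduced folate carrier, rose by 1.40 ± 0.29 (adjusted p = 0.0194), and Fpgs, which adds the glutamate chain that keeps folate in the cell, by 1.95 ± 0.42 (adjusted p = 0.0208). Slc25a32, the mitochondrial folate carrier, rose by 1.28 ± 0.29, Mtr, methionine synthase, by 1.03 ± 0.25, and its reductase Mtrr by 1.31 ± 0.31. Mat2a and Mat2b, which make S-adenosylmethionine, rose by 1.31 ± 0.33 and 1.57 ± 0.39. Aldh1l1, the cytosolic formyltetrahydrofolate dehydrogenase known as an astrocyte marker, was lower, with a log2 fold change of -2.22 ± 0.36 (adjusted p = 0.00666). It had 4.22, 4.40, 2.59 and 4.07 log2 CPM in tumors against 6.01 to 6.40 in P7 cerebella, and the 8 astrocyte and Bergmann glia markers summed to 481 to 2595 CPM in tumors and 2338 to 2423 in P7 cerebella. Against SHH MB, Fpgs (1.86 ± 0.42), Slc19a1 (1.79 ± 0.30) and Mat2b (1.69 ± 0.39) passed as higher and Aldh1l1 (-1.81 ± 0.36) as lower.
Purine salvage and turnover had 3 of 22 genes higher against P7 cerebella. Among them were Hprt, which salvages hypoxanthine and guanine with PRPP (1.91 ± 0.30, adjusted p = 0.00528), and Adk, adenosine kinase (1.93 ± 0.31, adjusted p = 0.00666). Hprt and Adk also passed against SHH MB (1.43 ± 0.29 and 1.26 ± 0.30). In pyrimidine salvage and turnover 1 of 17 genes, Dctd, the dCMP deaminase that feeds thymidylate synthesis, was higher against P7 cerebella (2.68 ± 0.56, adjusted p = 0.0186) and against SHH MB (2.10 ± 0.54, adjusted p = 0.0451). In glycine cleavage, serine use and uptake 3 of 11 genes were higher against P7 cerebella. They were Gldc and Gcsh of the glycine cleavage system (1.38 ± 0.38 and 1.34 ± 0.33) and Slc1a5, a carrier of glutamine and other neutral amino acids (6.48-fold). Of the pentose phosphate pathway 1 of 7 genes was higher, Rpia, the isomerase that yields ribose phosphate (1.63 ± 0.30, adjusted p = 0.0114). None of the last 2 lists passed against SHH MB, where 4 and 1 of their genes had an unadjusted p under 0.05 (5939 of all 29952 genes). Between SHH MB and P7 cerebella no gene of these 5 lists passed in edgeR, and 5 had an unadjusted p under 0.05 (2635 of all 29952 genes).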

How the data were processed

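Total RNA libraries of 10 FFPE samples (CORALL kit after RiboCop depletion) were sequenced single-end. The authors trimmed reads with Trimmomatic (0.38.1), aligned them to GRCm39 with STAR (2.7.8a) and deposited raw counts per gene from featureCounts (2.0.1). The annotation and strand setting are not given in the sources used here. The authors also deposited log2-scale values from the variance-stabilizing transformation of DESeq2 (2.11.40.7), used here only for the limma alternative. Groups follow the sample labels. Counts of all 10 libraries were fitted in R 4.3.3 with edgeR 4.0.16 (TMM scaling, filterByExpr by group, quasi-likelihood test), and p-values were adjusted by Benjamini-Hochberg over the 29952 genes tested. The standard error is the absolute log2 fold change divided by the square root of F. Levels are log2 CPM with a prior count of 2. Libraries held 5663491 to 9352109 counts, and with TMM scaling 3 counts corresponded to 0.307 to 0.744 CPM. Alternatives used limma 3.58.1, DESeq2 1.42.0, other filters and scalings, and the omission of single libraries. The fits were tested on simulated data. A difference that missed the threshold is not shown to be absent. The members and gene lists were chosen with earlier results of these data known. All 39 members are named, with values per library for the lowest p of each role against either control, for isozyme pairs and for genes opposite in sign to their role. Of the other lists, genes that passed are named, except 1 that is not reported here. Mthfs was not tested because of low counts.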

Additional observations from a re-analysis of the deposited data

Results flagged for a closer look

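Among the 39 genes, 3 had a tumor library far from the other tumors, by Dixon's test at the 95% level on the ratio of the gap to the whole range. At this level chance alone flags about 1 gene in 20, and 3 of 39 is near that rate. The share of all genes flagged by this rule was not determined. All 3 were low values of tumor 1. Tyms stood at 1.46 log2 CPM in tumor 1, with the next tumor at 5.17 (ratio 0.875). Nme2 stood at 4.47 with the next at 6.27 (0.938), and Shmt2 at 4.10 with the next at 6.59 (0.853). Tumor 1 also had the lowest summed level of the 12 proliferation genes and the highest of the mature granule neuron, Purkinje cell and myelin markers, and their part in these values was not tested.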

How the results depend on the processing

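No gene past the threshold in the fit of all libraries changed sign in any setting tried. Against P7 cerebella the main count of 14 genes higher became 23 with DESeq2 (6.22% of all genes), 9 with limma on the log2-scale values (1.2%), and 0 when only the groups compared were fitted (0.206%). With at least 10 counts required in every library 13 were higher and 1 lower. Against SHH MB the counts of 4 higher and 1 lower became 7 and 2 with DESeq2, 2 and 0 with limma, 4 and 2 with the count minimum, and 1 and 0 with only the groups compared. In that order, 3.98%, 0.692%, 4.77% and 0.337% of all genes were higher, and 2.07%, 1.21%, 6.06% and 1.15% lower. SHH MB against P7 cerebella gave 23 higher and 1 lower with only those groups, and a median of 0.59 in place of 0.66 with the count minimum. A fit of the groups compared without tumor 1, chosen after seeing the data, gave 22 higher against P7 cerebella and 17 against SHH MB (5.93% and 3.72% of all genes). Omitting single libraries gave 0 to 28 higher and 0 to 1 lower against P7 cerebella, and 0 to 19 higher and 0 to 2 lower against SHH MB. Of all genes, 0.1% to 11.8% were then higher and 0.369% to 22.8% lower against P7 cerebella. Against SHH MB 0.166% to 9.57% were higher and 0.789% to 13.9% lower. For SHH MB against P7 cerebella such omissions gave 0 higher (at most 0.0186% of all genes), with medians of 0.58 to 0.74. With the replicate block the counts higher were 0, 1 and 0 in the 3 comparisons (0.551%, 0.771% and 0.0534% of all genes), and 0 lower against SHH MB. Nothing in the labels says what a shared number stands for, and deviations of same-numbered samples correlated between -0.274 and 0.162, so they do not pair the samples. The other scalings (RLE, and library sizes without mitochondrial and rRNA-like genes), no filter and robust estimation kept all counts within 1.5 times the main ones. The median of all genes against P7 cerebella moved from -0.05 to 0.07 with the count minimum and -0.26 with DESeq2, and calls over all genes turned from mostly higher (3.99% against 2.27%) to more lower than higher with the count minimum (5.1% against 6.61%), limma (1.2% against 1.23%), only the groups compared (0.206% against 0.607%), the block (0.551% against 0.684%), without tumor 3 (11.8% against 22.8%) and without each P7 cerebellum (0.1% to 0.227% against 0.369% to 0.505%). The cause of these changes was not tested. Depth limits Rrm2 and Tyms in tumor 1, with 10 counts each.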
